A study of Mus musculus with 26 samples.

Results

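CXCL12 was added to cultures of CXCR4-deficient small pre-B cells of the mouse, labelled as kept without interleukin 7 (IL-7), and mRNA was sequenced with and without the chemokine. These are 4 of the 18 RNA libraries of the series: 2 labelled CXCR4-/- and without IL-7, and 2 labelled CXCR4-/-, without IL-7 and with CXCL12. Libraries entered by their labels, and the comparison itself was picked with earlier results of these data known. As labelled, all 4 therefore carry the deletion and lack IL-7, and the pair of groups differs by CXCL12. Levels of some genes described below went against that label: Cish and Myc stood above, and Clgn near, the sufficient cultures with IL-7. Others did not: Ccnd2 stood below those cultures in all 4 libraries, and Mki67 in the 2 without CXCL12. Whether the deficient cultures lacked IL-7 was not tested, so every difference between deficient and sufficient cultures is one between libraries as labelled. In a study of how CXCR4 signalling bears on recombination of the immunoglobulin kappa locus, the comparison asks whether the response to CXCL12 needs its receptor CXCR4. The same comparison in 4 sufficient libraries, labelled as pre-B or small pre-B cells without IL-7, with no deletion named, is given beside it (2 without CXCL12 and 2 with it). The other groups of the series entered the fit as well. Some are labelled pre-B cultures with IL-7, with IL-7 and CXCL12, or without IL-7 but with CXCL12 and an ERK inhibitor. The rest are labelled small pre-B cells, wild type or CXCR4-deficient, with no culture factor named, and are called sorted here. The labels give no dose, time, age, strain, allele or driver of the deletion. They do not state whether replicate libraries are of different animals or cultures. A p-value therefore sets a change only against how far libraries within a group lay apart, pooled over the 9 groups of the series. That spread may be technical, and it need not be that of the libraries compared. Between the sufficient replicates it was little above counting noise, as given below.

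CXCL12 is a chemokine made by stromal cells of the bone marrow. CXCR4 is its G-protein coupled receptor on B cell progenitors, and ACKR3 (listed under its older symbol Cxcr7) is a second, atypical receptor. IL-7 acts through JAK and STAT5 to keep large pre-B cells dividing. When IL-7 signalling falls, pre-B cells leave the cycle as small pre-B cells, express Rag1 and Rag2 and rearrange their light chain genes.

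Levels below are CPM, counts relative to a library total scaled by TMM, in the order replicate 1, replicate 2. Each change is a log2 change with CXCL12 ± SE, with n = 2 libraries per group. Its adjusted p comes from edgeR's quasi-likelihood test with Benjamini-Hochberg adjustment over all 14862 genes tested. A gene was called at an adjusted p under 0.05. The difference is the change in deficient cultures minus that in sufficient ones, tested in the same model.

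The 4 deficient libraries held 19550744 to 28902098 counts. Replicate 1 without CXCL12 stood apart. Over 9510 genes of mean log2 CPM 3 or more, 19.3% were at least 2-fold apart between the 2 libraries without CXCL12. Between replicate 2 without CXCL12 and replicates 1 and 2 with it the share was 0.705% and 1.60%, and between the 2 libraries with CXCL12 it was 0.599%. Replicate 2 without CXCL12 thus lay closer to both treated libraries than to its own replicate. In the other 7 groups the replicate pairs had 0.0315% to 3.23% of genes that far apart. A chi-square of counts between replicates, per degree of freedom, was 1.48 without and 1.34 with CXCL12 in sufficient cultures, little above counting noise. In deficient cultures it was 265.5 without and 10.8 with CXCL12. The sufficient pairs thus need not carry the spread between animals or cultures, and their p-values are limited by that.

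The distance followed the genomic span of genes, the distance from first to last base of the gene including introns. In replicate 1 without CXCL12, genes of the shortest quintile (up to 8.62 kb) had a median 0.86 log2 units above their mean over all 18 libraries, and genes of the longest quintile (over 64.5 kb) lay at -0.76. The shortest minus the longest quintile came to 1.62 in that library, 0.46 in replicate 2 without CXCL12, 0.18 and -0.11 in the libraries with CXCL12, and -0.42 to 0.15 in the other 14. Ribosomal protein genes, most of them short, took 5.94% of counts in that library, against 2.44%, 2.11% and 1.82% in the other 3 deficient ones. That share was not particular to it. It was 6.25% to 7.32% in the libraries with IL-7 and CXCL12 and in those with an ERK inhibitor, where the quintiles differed by only -0.01 to 0.15. The 4 deficient libraries thus lay in 1 order by span, from replicate 1 without CXCL12 to replicate 2 with it. The part of span in each change was not tested apart from the fit described below with the span trend removed.

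**Figure D1:**
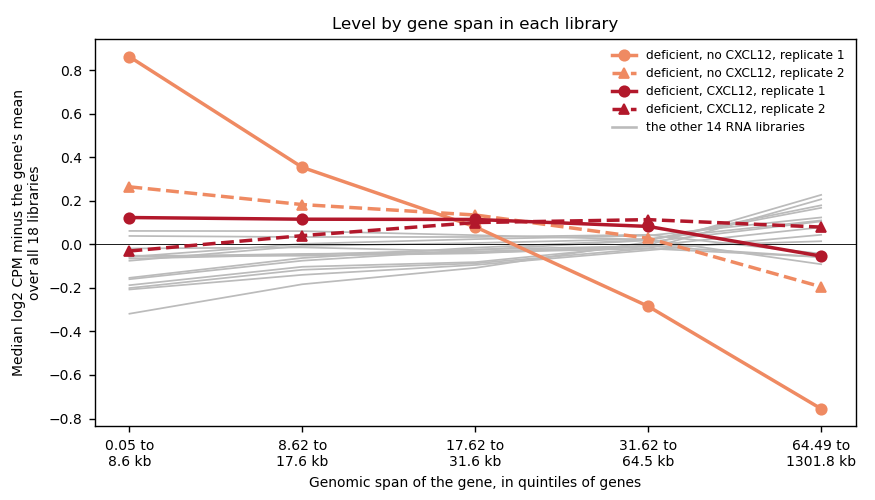
Median log2 CPM of genes, less each gene's mean over all 18 RNA libraries, by quintile of genomic span, with 1 line per library. Replicate 1 without CXCL12 runs from 0.86 in the shortest quintile to -0.76 in the longest, and the lines of the other 3 deficient libraries are flatter.

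Markers showed B-lineage cells in all 4 libraries. The 10 B-lineage markers, led by Cd24a, summed to 15432 and 9275 CPM without CXCL12 and 8296 and 7644 CPM with it, and 7 of the 10 were called lower with CXCL12 (median -0.73), 2 without replicate 1. The 8 measured RNA quality genes summed to 16334 and 9202 and then 8386 and 7436 CPM, with 5 called lower (median -0.56) and none without replicate 1. Of all genes tested 21% were called lower with CXCL12, the background for these counts. The 10 plasmacytoid dendritic cell markers summed to 818 and 339 and then 247 and 218 CPM, with 2 called lower, near that share. These sums followed the order of the libraries by span, and their part in the changes was not tested. Of 21 myeloid markers, 17 were under 1 CPM in all 4 deficient libraries and the list summed to 15.2 to 21.0 CPM. Of 16 stromal markers 13 were under 1 CPM in all 4, and the list, led by the surface glycoprotein gene Thy1, summed to 86.4 to 104.6 CPM. The sufficient cultures differed in this: the same stromal list summed to 2061 to 2088 CPM without CXCL12 and 4979 to 5098 CPM with it, and the myeloid list to 380.3 to 385.1 and 947.1 to 948.7 CPM. There the T cell list went from 147.9 and 146.7 CPM to 58.0 CPM in both libraries, the plasmacytoid dendritic cell list from 243 and 236 to 436 and 440.5 CPM, and the RNA quality genes from 8202 and 8290 to 10882 and 10943 CPM. Other lists stood higher in deficient cultures. The T cell list summed there to 366 and 239 and then 232 and 221 CPM. Plasma cell markers summed to 1515 and 1105 and then 1028 and 958 CPM, against 686 and 686 and then 615 and 605 CPM in sufficient ones. Genotype, culture set and the share of such cells cannot be told apart in any comparison between sufficient and deficient cultures, and fewer cells of a type cannot be told apart from less RNA per cell.

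Cxcr4 transcripts did not mark the deletion. They stood at 114 and 130.0 CPM without CXCL12 and 137 and 133 CPM with it in the deficient cultures, and at 169 and 171 and 237 and 226 CPM in the sufficient ones. All 4 deficient libraries lay below all 4 sufficient ones, yet far above 0. The sources used here do not name the deleted exons, and transcripts of the remaining exons may still be counted, so the level does not test the label. The change with CXCL12 was 0.14 ± 0.65 in deficient cultures (adjusted p = 0.927).

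The other receptor was all but unread. Cxcr7 had 0 and 1 counts without CXCL12 and 0 and 0 with it in the deficient libraries, at or under a floor of 3 counts (0.124 to 0.154 CPM), so no fold is given. In the sufficient libraries it had 41, 26, 54 and 22 counts. Transcripts of Cxcl12 itself were at 3, 4, 3 and 4 counts in the deficient libraries and at 40.7 and 43.2 CPM without and 64.6 and 66.7 CPM with added CXCL12 in the sufficient ones, which also held the stromal markers.

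In the fit to all 18 libraries, 5020 genes were called between deficient cultures with and without CXCL12 (33.8% of those tested), 1906 higher (12.8%) and 3114 lower (21%). That count depended on single libraries. Without the library that stood apart, with 15312 genes tested, 1250 genes were called (8.16%), 873 higher (5.7%) and 377 lower (2.46%). These shares are the background for every count of list members called in deficient cultures. For sufficient cultures the background was 17.3% higher and 13.2% lower, and for the difference 12.1% higher and 13.1% lower. Of the 5020 calls, 5014 kept their sign without that library and 1158 were called the same way. The order of the libraries was the same for nearly all: in 4925 of the 5020, replicate 2 without CXCL12 lay between replicate 1 and both treated libraries.

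Other fits gave very different counts for the same libraries. Leaving out replicate 2 without CXCL12 gave 8602 calls, leaving out replicate 1 with CXCL12 gave 31, and leaving out replicate 2 with CXCL12 gave 0 in edgeR (4040 at an unadjusted p under 0.05). In a fit to the 4 deficient libraries alone edgeR also called 0 genes (261 at an unadjusted p under 0.05; DESeq2 called 6302 in the fit to all 18). A test for a change of at least 2-fold called 0 in edgeR (559 at an unadjusted p under 0.05). Weights for library quality, in limma, left 1035 calls. Of the 39 genes described below by their change and called in deficient cultures, 36 lost the call without replicate 1 of CXCL12, 39 without replicate 2 of CXCL12 and 15 without replicate 1 of the untreated pair. The plot of genes called under each fit shows these side by side.

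**Figure D2:**
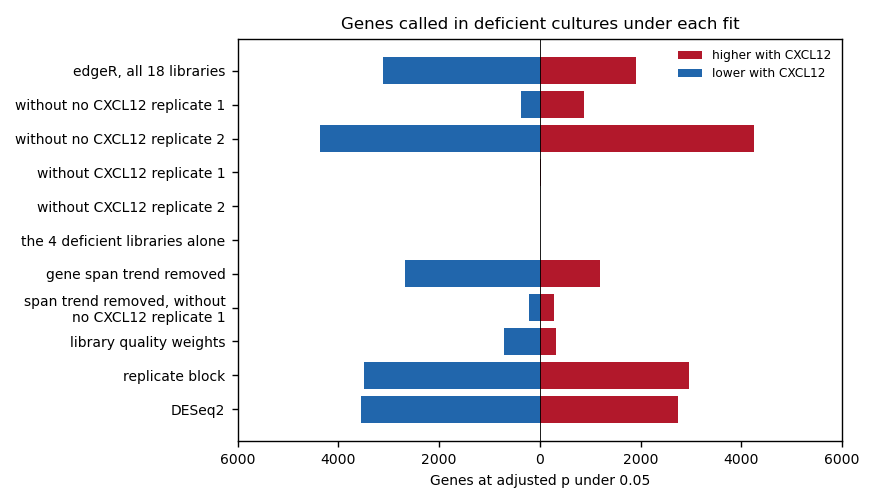
Number of genes at an adjusted p under 0.05 between deficient cultures with and without CXCL12 under 11 fits, higher to the right and lower to the left. The bars range from 0 genes, without replicate 2 with CXCL12 or with the 4 deficient libraries alone, to 8602 without replicate 2 of the untreated pair.

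The calls followed span as the libraries did. In the shortest quintile 60.9% of genes were called lower and 2.30% higher with CXCL12. In the longest quintile 6.41% were called lower and 44.0% higher. The sufficient cultures showed no such slope, with 13.3% lower and 15.0% higher in the shortest quintile and 14.6% and 18.9% in the longest. Over 8893 genes with a span, the rank correlation of span with the change was 0.56 in deficient cultures, 0.54 without the library that stood apart, and 0.05 in sufficient ones. Across these genes, which are not independent replicates and share the same libraries, this is a description. With the span trend removed from each library, 3869 genes were called, and 508 when replicate 1 without CXCL12 was also left out.

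Of the 25 lists, those of the cell cycle differed most from sufficient cultures by their medians. All 44 measured S phase genes, which copy DNA, fell with CXCL12 in sufficient cultures, with a median of -1.64, where 13.2% of all genes fell. In deficient cultures 12 rose and 10 fell (12.8% and 21% of all genes did), with a median of 0.07 against 0.00 over all genes. Without the library that stood apart 7 rose and 1 fell (5.7% and 2.46% of all genes did). The difference was called for 41 of 44, all higher (12.1% of all genes were), with a median of 1.70. Without that library it was called for 44 of 44. Across all fits run it was called higher for 25 to 44 of the 44, fewest in the test for a 2-fold change. As this list fell in the sufficient libraries in earlier results of these data, its difference is not independent evidence of direction.

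To show what part of the S phase list shares in sequence, 2 promoter windows are printed, those of the list's members with the smallest adjusted p of the difference among genes with 1 listed start and a match to an E2F motif. E2F factors drive S phase genes. The motifs searched were TTTCCCGC and TTTGGCGC on both strands, and no 8-base site matches both. The third window is that of Cish, a STAT5 target described below, searched on both strands for the STAT motif TTCNNNGAA. Sequences are from RefSeq on GRCm38.p6 and run 5′ to 3′ on the gene's strand from 250 bases before its start to the start, or to the end of the last match. Capitals mark the matches. The positions are chr2:72475969-72476218 (plus strand) for Cdca7, chr1:128359706-128359955 (minus strand) for Mcm6 and chr9:107296409-107296678 (plus strand) for Cish.
Cdca7: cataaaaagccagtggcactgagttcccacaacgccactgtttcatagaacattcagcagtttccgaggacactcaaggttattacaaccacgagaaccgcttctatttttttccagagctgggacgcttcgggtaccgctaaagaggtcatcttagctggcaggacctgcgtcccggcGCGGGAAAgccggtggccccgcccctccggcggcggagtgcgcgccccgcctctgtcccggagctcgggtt
Mcm6: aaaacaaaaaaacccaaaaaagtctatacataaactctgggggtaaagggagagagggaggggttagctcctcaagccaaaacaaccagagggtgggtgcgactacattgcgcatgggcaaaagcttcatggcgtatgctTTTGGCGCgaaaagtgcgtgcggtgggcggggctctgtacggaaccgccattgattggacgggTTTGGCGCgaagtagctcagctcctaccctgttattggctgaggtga
Cish: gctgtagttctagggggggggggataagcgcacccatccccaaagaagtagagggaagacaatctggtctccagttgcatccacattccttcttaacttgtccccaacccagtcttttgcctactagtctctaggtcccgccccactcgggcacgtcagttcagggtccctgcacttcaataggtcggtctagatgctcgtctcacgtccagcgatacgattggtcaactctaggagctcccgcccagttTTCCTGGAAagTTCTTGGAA
Of the 44 S phase genes 32 had a window of 250 bases before to 50 after the start, and 12 of these (37.5%) held an E2F match. Over all 27025 genes with a window the share was 1.63%, and over the genes tested it was 2.92%. The G2 and M phase list held 1 match in 46 windows (2.17%). A STAT match lay in 8.47% of all windows. The Cish matches begin at the start itself and 11 bases after it. A match is a description of letters and no binding was measured here.

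Mcm6, a subunit of the replicative helicase, was at 635 and 638 CPM without CXCL12 and 676 and 645 CPM with it in deficient cultures. In sufficient cultures it was at 449.5 and 448 and 133 and 132 CPM. The deficient libraries all lay within a narrow range above the sufficient ones, replicate 1 without CXCL12 included. The change was 0.05 ± 0.07 in deficient cultures (adjusted p = 0.594) and -1.76 ± 0.07 in sufficient ones (adjusted p = 3.9e-08), and the difference was 1.81 ± 0.10 (adjusted p = 9.3e-07). Cdca7, a chromatin factor of S phase, stood at 348 and 347 and then 329 and 317 CPM in deficient cultures, and at 146 and 146 and then 31.5 and 30.6 CPM in sufficient ones. Again the 4 deficient levels were close to each other and above the others. The difference for Cdca7 was 2.13 ± 0.11 (adjusted p = 8.8e-07). Both genes were picked for a small adjusted p of the difference, so these p-values are not independent evidence.

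Some long genes of S phase rose in deficient cultures. Clspn, the checkpoint adaptor claspin, was at 108 and 167 CPM without CXCL12 and 207 and 219.6 CPM with it. The groups did not overlap and replicate 1 without CXCL12 was lowest. Clspn rose by 0.63 ± 0.14 (adjusted p = 0.0218), and by 0.37 without that library (adjusted p = 0.0127). Atad2, a chromatin ATPase, rose by 0.62 ± 0.13 (adjusted p = 0.0218) from 214 and 296 to 358 and 423 CPM, and by 0.41 without replicate 1 (adjusted p = 0.0179). In sufficient cultures both fell, Clspn from 185 and 183 to 54.5 and 54.5 CPM and Atad2 from 237 and 237 to 95.9 and 92.8 CPM. In deficient cultures Pcna, Fen1, Gins2, Rfc2, Rpa2, Ung, Gmnn, Tipin, Chaf1b and Dscc1 were the S phase genes that fell.

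Genes of G2 and M phase, which build the spindle and condense chromosomes, differed in the same direction. Of 52 tested, 51 fell in sufficient cultures (median -1.37), where 13.2% of all genes fell. In deficient cultures 22 rose and 10 fell (median 0.17), where 12.8% and 21% of all genes did. Without the library that stood apart 13 were called, all higher, with a median of 0.13 (5.7% of all genes were higher and 2.46% lower). The difference was called higher for 47 of 52, and for 52 of 52 without that library, with medians of 1.53 and 1.56. Its fewest calls were 26, in the test for a 2-fold change.

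Mki67, the proliferation antigen Ki-67, was at 1021 and 1403 CPM without CXCL12 and 1765 and 2120.0 CPM with it in deficient cultures. Both treated libraries lay above both untreated ones, and the treated libraries differed from each other as well. Mki67 rose by 0.68 ± 0.14 (adjusted p = 0.0218), or by 0.48 without replicate 1 (adjusted p = 0.0204). In sufficient cultures Mki67 went from 2019 and 1995 to 779 and 774 CPM and fell by 1.37 ± 0.14 (adjusted p = 2.1e-05), and the difference was 2.05 ± 0.20 (adjusted p = 2.3e-05). Cenpe, a kinetochore motor, rose by 0.65 ± 0.13 in deficient cultures (adjusted p = 0.0218), from 159 and 217 to 269.6 and 319 CPM. It went from 286 and 284 to 110.4 and 112 CPM in sufficient ones, and its difference was 2.01 ± 0.19 (adjusted p = 1.6e-05).

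**Figure D3:**
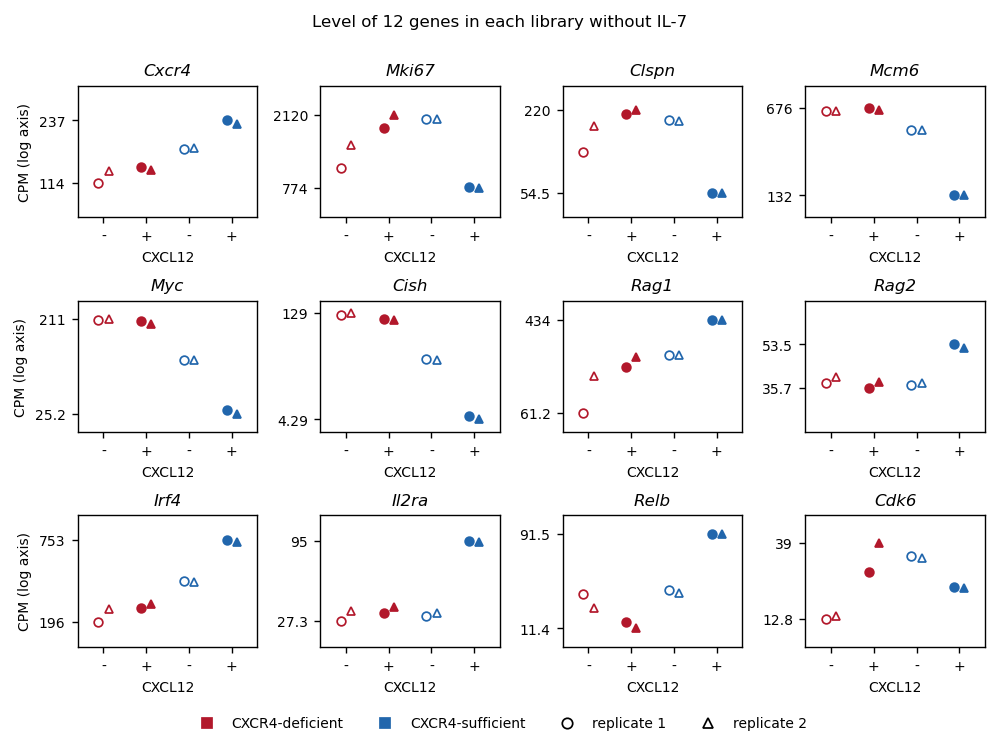
Level in CPM on a log axis of 12 genes in each of the 8 libraries without IL-7, without (-) and with (+) CXCL12, with deficient cultures in red, sufficient in blue, circles for replicate 1 and triangles for replicate 2. For Mcm6 and Cish, levels with CXCL12 in sufficient cultures (132 and 133 CPM and 4.29 and 4.79 CPM) lie below every other library, while the 4 deficient libraries lie together.

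Of the 19 D cyclins, CDK inhibitors and E2F genes, which control entry into the cycle, 4 rose and 5 fell in deficient cultures. In sufficient ones 2 rose and 12 fell, where 17.3% and 13.2% of all genes did. Cdk6, the kinase partner of D cyclins, had close controls, with 12.8 and 13.4 CPM without CXCL12 and 25.5 and 39.0 CPM with it. The treated libraries lay above both controls and apart from each other. Cdk6 rose by 1.30 ± 0.18 (adjusted p = 0.0218), and by 1.28 without replicate 1 (adjusted p = 0.0136). In sufficient cultures Cdk6 went from 32.2 and 31.4 to 20.3 and 20.3 CPM and fell by 0.65 ± 0.18 (adjusted p = 0.0155). The call of that fall was lost without any 1 of the 4 sufficient libraries, with changes of -0.67 to -0.63.

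The cyclins behaved otherwise. Ccnd3, the main D cyclin of pre-B cells, was at 1735 and 1288 and then 1235 and 1107 CPM, and fell by 0.37 ± 0.12 (adjusted p = 0.0388), but its value without replicate 1 was -0.13 (adjusted p = 0.404). Ccnd2 was at 224 and 384 and then 389 and 429.8 CPM, a change of 0.43 ± 0.17 (adjusted p = 0.074). In sufficient cultures both fell, Ccnd3 by 1.30 ± 0.12 and Ccnd2 by 0.97 ± 0.18 (adjusted p = 1.1e-05 and 0.00148). The differences were 0.93 ± 0.17 (adjusted p = 0.00271) and 1.40 ± 0.25 (adjusted p = 0.00189). Cdkn1b, the CDK inhibitor p27, changed by -0.24 ± 0.10 in deficient cultures (adjusted p = 0.0924) between 129 and 106 and 102 and 97.0 CPM.

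Cish and Myc, which IL-7 signalling raises, were high in deficient cultures whether or not CXCL12 was added. Cish, an inhibitor of cytokine signalling induced through STAT5, was at 123 and 129 CPM without CXCL12 and 106 and 105 CPM with it. In sufficient cultures it was at 30.0 and 28.9 CPM without CXCL12, 4.79 and 4.29 CPM with it and 79.0 and 73.6 CPM with IL-7. All 4 deficient libraries, labelled as without IL-7, thus lay above the sufficient libraries with IL-7. With CXCL12 Cish changed by -0.25 ± 0.10 in deficient cultures (adjusted p = 0.0601) and fell by 2.69 ± 0.11 in sufficient ones (adjusted p = 3.9e-08), a difference of 2.43 ± 0.14 (adjusted p = 1.2e-06).

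Myc, the growth regulator, was at 207 and 211 CPM without CXCL12 and 201 and 187 CPM with it in deficient cultures. Its level in sufficient cultures was 84.1 and 84.5 CPM, 27.7 and 25.2 CPM with CXCL12 and 158.8 and 164 CPM with IL-7. Again the deficient libraries were the highest and close together. The change of Myc was -0.11 ± 0.08 (adjusted p = 0.294) in deficient and -1.67 ± 0.08 (adjusted p = 6.5e-08) in sufficient cultures, with a difference of 1.56 ± 0.11 (adjusted p = 2.8e-06). Summed S phase genes stood likewise at 11171 to 11691 CPM in the deficient libraries, 7929 to 7958 CPM in sufficient ones without IL-7, and 9268 and 9210 CPM with IL-7. Ccnd2 lay the other way, at 450 and 463 CPM with IL-7 and 224 to 430 CPM in the deficient libraries. Mki67 was at 1771 and 1705 CPM with IL-7. In deficient cultures it was at 1021 and 1403 CPM without CXCL12 and 1765 and 2120 CPM with it. These levels are given side by side with no test, since the culture sets differ in more than genotype.

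Among the 19 genes of the IL-7 receptor, JAK-STAT5 and its targets 1 rose and 3 fell in deficient cultures, and none of these calls held without replicate 1. In sufficient cultures 5 rose and 7 fell, where 17.3% and 13.2% of all genes did. The difference was called for 12, 7 higher and 5 lower (12.1% and 13.1% of all genes were). Il7r, the receptor chain, was at 110.2 and 145 and then 144 and 156 CPM, a change of 0.23 ± 0.11 (adjusted p = 0.125). Of the 37 genes of MYC and ribosome biogenesis 4 rose and 12 fell (median -0.15), and without replicate 1 only 1 was called, higher. In sufficient cultures 16 were called, all lower (median -0.33), where 13.2% of all genes fell.

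Recombination genes did not move as a group. Of 16 genes of V(D)J recombination and end joining 5 rose and 4 fell in deficient cultures, and without replicate 1 the calls were 3, all higher (Rag1, Prkdc and Atm). Rag1, which with Rag2 makes the recombinase, was at 61.2 and 132 CPM without CXCL12 and 161 and 198 CPM with it. Both treated libraries lay above both controls, which themselves differed by more than the treated ones did. Rag1 rose by 0.90 ± 0.25 (adjusted p = 0.0227), or by 0.46 without replicate 1 (adjusted p = 0.0282). In sufficient cultures it rose from 205 and 207 to 434 and 429 CPM, by 1.07 ± 0.25 (adjusted p = 0.00695). The difference was -0.17 ± 0.35 (adjusted p = 0.775), so a rise of Rag1 that differed with the genotype was not shown.

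Rag2 was steady: 37.4 and 39.7 CPM without CXCL12 and 35.7 and 37.8 CPM with it in deficient cultures. The groups overlapped. Its change was -0.07 ± 0.08 (adjusted p = 0.523) against 0.50 ± 0.08 in sufficient cultures (adjusted p = 4.5e-04), where it went from 36.8 and 37.3 to 53.5 and 51.5 CPM, and the difference was -0.57 ± 0.11 (adjusted p = 0.00313). Prkdc, the catalytic subunit of DNA-PK, rose by 0.76 ± 0.17 in deficient cultures (adjusted p = 0.0218), from 39.1 and 59.6 to 74.7 and 91.9 CPM, and by 0.49 without replicate 1 (adjusted p = 0.0292).

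Of the regulators of pre-B cell fate described next, all of which rose in sufficient cultures, only Brwd1 was called in deficient ones. Irf4, which promotes light chain recombination, was at 196 and 243 and then 244 and 261 CPM in deficient cultures. Only replicate 1 without CXCL12 stood lower than the rest. The change was 0.20 ± 0.09 (adjusted p = 0.113), against a rise of 0.95 ± 0.10 (adjusted p = 1.5e-05) from 386 and 376 to 753 and 722 CPM in sufficient cultures, and the difference was -0.75 ± 0.13 (adjusted p = 0.002). Spib, a partner of IRF4, was at 718 and 826 and 817 and 802 CPM, with overlapping groups, and its difference was -0.81 ± 0.12 (adjusted p = 4.1e-04). Irf8 was at 463 and 515 and 473 and 441 CPM, and its difference was -0.45 ± 0.12 (adjusted p = 0.0159). The call of the Irf8 difference ended without replicate 2 with CXCL12 of the deficient cultures (-0.40, adjusted p = 0.0792) and without any 1 of the 4 sufficient libraries (adjusted p from 0.0512 to 0.0622). Its rise in sufficient cultures lost its call without any 1 of 3 of these 4 (adjusted p from 0.0538 to 0.0586). Brwd1, a chromatin reader that opens the kappa locus, was low, at 5.86 and 6.04 CPM without CXCL12 and 7.95 and 7.67 CPM with it. It rose by 0.39 ± 0.12 (adjusted p = 0.026), with 0.38 without replicate 1 (adjusted p = 0.138), and by 1.28 ± 0.10 in sufficient cultures (adjusted p = 2.5e-06). With the span trend removed the deficient change of Brwd1, a long gene, was -0.070. The Brwd1 difference was -0.89 ± 0.15 (adjusted p = 0.00168).

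Il2ra, the CD25 chain that marks pre-B cells, was at 27.3 and 31.6 CPM without CXCL12 and 30.9 and 33.9 CPM with it. The deficient groups overlapped, while in sufficient cultures Il2ra rose from 29.5 and 30.8 to 95.0 and 93.2 CPM. The changes were 0.14 ± 0.10 (adjusted p = 0.308) and 1.64 ± 0.10 (adjusted p = 3.2e-07), and the difference was -1.50 ± 0.14 (adjusted p = 1.8e-05). Bcl6, a repressor that protects pre-B cells, was at 7.22 and 7.02 and then 5.24 and 8.27 CPM, overlapping, with a difference of -1.61 ± 0.26 (adjusted p = 9.6e-04).

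Of the 27 B-lineage transcription factors 9 rose and 2 fell in deficient cultures (4 calls, all higher, without replicate 1), with a median of 0.38, and the median span of the list was 94.9 kb against 21.7 kb over all genes tested. Ikzf3 (Aiolos) was at 75.0 and 176 CPM without CXCL12 and 239 and 344 CPM with it, a rise of 1.22 ± 0.29 (adjusted p = 0.0218) and of 0.74 without replicate 1 (adjusted p = 0.0222). Every one of its 4 libraries stood apart from the next. Ikzf1 (Ikaros) rose by 0.43 ± 0.15 (adjusted p = 0.0416), with 0.16 without replicate 1 (adjusted p = 0.107), its levels being 290.0 and 452 and then 479.8 and 519 CPM. Pax5, which holds B cell identity, fell by 0.75 ± 0.23 (adjusted p = 0.0306), but the fall was that of 1 control: its levels were 454 and 218 CPM without CXCL12 and 201 and 199 CPM with it, and without replicate 1 the change was -0.11 (adjusted p = 0.467). The Pax5 difference between genotypes (-0.99, adjusted p = 0.0446) lost its call without any 1 of 7 of the 8 libraries (adjusted p from 0.0818 to 0.124), and kept it without replicate 2 without CXCL12 of the deficient cultures. Ebf1 and Foxo1 were not called, with changes of 0.52 ± 0.23 (adjusted p = 0.0926) and 0.22 ± 0.09 (adjusted p = 0.0702). Ebf1 was at 158 and 328 and then 345 and 353 CPM, with 1 control low. Foxo1 was at 233 and 270.1 and then 284 and 304 CPM. Id3, an inhibitor of E proteins, fell by 0.85 ± 0.24 (adjusted p = 0.0233) from 207 and 111 to 98.6 and 77.7 CPM, and its value without replicate 1 was -0.32 (adjusted p = 0.277). Pou2f1 and Ikzf2, named for their small p, rose by 1.01 ± 0.24 (adjusted p = 0.0218) and 1.31 ± 0.24 (adjusted p = 0.0218), the latter at only 0.949 and 1.18 and then 2.12 and 3.16 CPM. Without replicate 1 they stood at 0.64 (adjusted p = 0.0622) and 1.17 (adjusted p = 0.0345).

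The surrogate light chain genes, part of the pre-B cell receptor, were high in 1 control alone. Vpreb1 was at 2027 and 672 CPM without CXCL12 and 556 and 522 CPM with it, and Igll1 at 1879 and 1005 and then 897 and 771 CPM. Replicate 1 without CXCL12 stood far above the other 3 libraries for both. Vpreb1 fell by 1.32 ± 0.37 (adjusted p = 0.0232) and Igll1 by 0.79 ± 0.26 (adjusted p = 0.0383), but without that library the values were -0.31 (adjusted p = 0.467) and -0.26 (adjusted p = 0.591). Of the 19 genes of the pre-B cell receptor and its near signalling, 1 rose and 6 fell, and the only call without that library was lower.

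Over the 26 listed regulators and markers above the floor, 5 rose and 5 fell in deficient cultures, where 12.8% and 21% of all genes did. Without the library that stood apart 3 were called, all higher (Rag1, Ikzf3 and Mki67). In sufficient cultures 11 rose and 6 fell, where 17.3% and 13.2% of all genes did. The difference was called for 14, and for 25.2% of all genes.

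Of 20 NF-kB subunits and targets, 13 were called in sufficient cultures, all higher (median 0.89), where 17.3% of all genes rose. In deficient cultures 1 rose (Rel) and 5 fell (median -0.32), where 12.8% and 21% of all genes did, so the share that fell was near that of all genes. Without replicate 1 the change was 0.76 for Rel and -0.52 for Relb. The difference was called lower for 12 (13.1% of all genes were). Relb, a subunit of the noncanonical pathway, was at 24.1 and 17.8 CPM without CXCL12 and 13.2 and 11.4 CPM with it. The treated libraries lay below both controls. It fell by 0.77 ± 0.14 (adjusted p = 0.0218), with -0.52 without replicate 1 (adjusted p = 0.025), and rose by 1.82 ± 0.14 in sufficient cultures (adjusted p = 1.9e-06), from 26.8 and 24.7 to 91.5 and 89.9 CPM. Its difference was -2.59 ± 0.20 (adjusted p = 4.7e-06).

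Of 32 immediate early and feedback genes of the ERK pathway, 16 rose and 1 fell in sufficient cultures (median 0.79), against 17.3% and 13.2% of all genes. In deficient cultures 1 rose and 6 fell (median -0.22), both smaller shares than the 12.8% and 21% of all genes. Without replicate 1, Spred1 was called higher and Nr4a1 lower. The difference was called for 12, 1 higher and 11 lower (12.1% and 13.1% of all genes were). Nr4a1, an orphan nuclear receptor, was at 35.6 and 34.0 CPM without CXCL12 and 26.1 and 26.4 CPM with it, with close pairs that did not overlap. It fell by 0.41 ± 0.09 (adjusted p = 0.0218), by 0.36 without replicate 1 (adjusted p = 0.0309), and rose by 0.54 ± 0.09 in sufficient cultures (adjusted p = 7.5e-04), with a difference of -0.95 ± 0.13 (adjusted p = 2.7e-04). Dusp6, the ERK phosphatase that ERK itself induces, was at 5.74 and 5.94 and then 5.06 and 3.96 CPM in deficient cultures and 51.8 and 51.6 and then 112 and 109.8 CPM in sufficient ones. All its deficient levels were low, and its difference was -1.47 ± 0.25 (adjusted p = 0.00146). Egr1 was likewise low at 6.23 and 6.51 and then 5.15 and 4.96 CPM, with no call in either set of cultures and a difference of -1.26 ± 0.67 (adjusted p = 0.181). Summed stromal and myeloid markers were higher in the sufficient libraries with CXCL12, as given above, and their part in the sufficient changes of these 2 lists was not tested.

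Among the 35 receptors of CXCL12 and genes of G-protein signalling, 9 rose and 3 fell in deficient cultures (median 0.15), and 5 rose without replicate 1 (Pik3r5, Dock2, Dock8, Elmo1 and Pak2). Elmo1 and Dock2 work together to activate Rac in migrating lymphocytes. Elmo1 was at 82.5 and 131 CPM without CXCL12 and 163 and 179 CPM with it. It rose by 0.68 ± 0.15 (adjusted p = 0.0218), and by 0.40 without replicate 1 (adjusted p = 0.0127). Pik3r5, a regulatory subunit of the PI3-kinase that G proteins activate, was at 32.1 and 40.5 and then 52.1 and 51.5 CPM. It rose by 0.51 ± 0.10 (adjusted p = 0.0218) here and by 0.45 ± 0.10 in sufficient cultures (adjusted p = 0.00525). The median span of the list was 44.5 kb. Of the 10 RGS genes, which end G-protein signals, 4 were called, all lower, and Rgs2 alone was called without replicate 1. Rgs1 was at 9 and 7 counts without CXCL12 and 2 and 1 with it, so its fitted change rests on few reads.

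**Figure D4:**
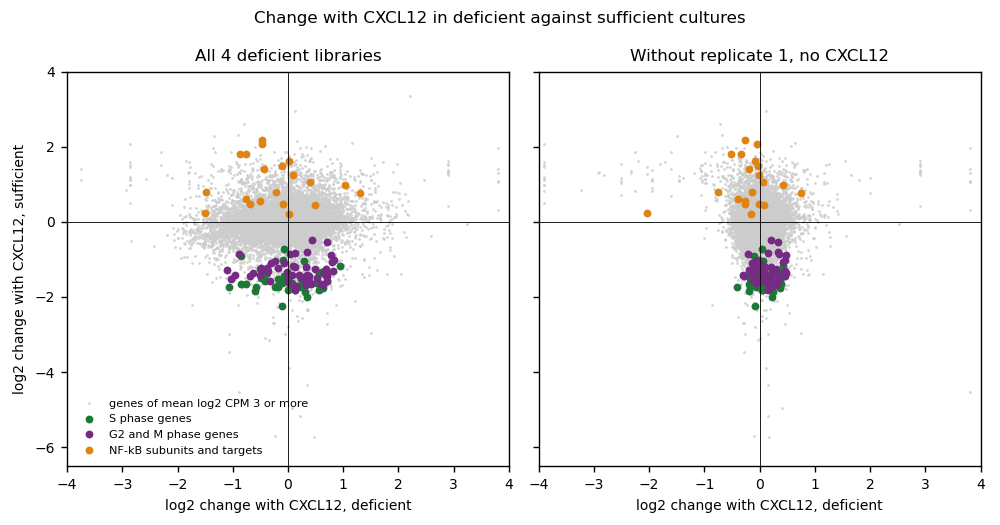
Log2 change with CXCL12 of each gene in deficient cultures (horizontal) against sufficient cultures (vertical), with all 4 deficient libraries on the left and without replicate 1 of the untreated pair on the right. S phase and G2 and M phase genes lie below 0 on the vertical axis and on both sides of 0 on the horizontal one, and the spread of all genes narrows on the right.

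Of the 25 lists, oxidative phosphorylation, the mitochondrial respiratory chain, had the median farthest from 0 in deficient cultures. Of 31 genes 28 were called, all lower, with a median of -0.99, where 21% of all genes fell. Without the library that stood apart 4 fell (2.46% of all genes did), with a median of -0.25. These genes are short, with a median span of 9.10 kb, and with the span trend removed 25 fell (median -0.77), or 1 when that library was also left out. Ndufb8, a subunit of complex I, was at 339 and 145 CPM without CXCL12 and 124 and 96.5 CPM with it. Replicate 1 without CXCL12 was more than 2-fold above the rest. It fell by 1.13 ± 0.27 (adjusted p = 0.0218), with -0.38 without replicate 1 (adjusted p = 0.0517). Cox5b of complex IV was at 95.9 and 50.7 and then 40.1 and 29.8 CPM, and Cycs (cytochrome c) at 30.6 and 8.20 and then 6.19 and 5.77 CPM.

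Antigen presentation genes fell in the same manner. Of 10 MHC class II genes 6 fell and 1 rose (median -0.66, median span 7.68 kb), and none of these calls held without replicate 1. H2-Ab1, a class II chain, was at 83.4 and 48.4 CPM without CXCL12 and 41.6 and 35.8 CPM with it, and fell by 0.77 ± 0.19 (adjusted p = 0.0218), or -0.31 without replicate 1 (adjusted p = 0.0716). Of 31 interferon response genes 10 fell and 1 rose. Psmb8, an immunoproteasome subunit, was at 1448 and 558 and then 455 and 378 CPM, a fall of 1.27 ± 0.29 (adjusted p = 0.0218), with -0.41 without replicate 1 (adjusted p = 0.0181). For H2-Ab1 and Psmb8 replicate 1 without CXCL12 was the highest of the deficient libraries by a wide margin.

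Long genes of chromatin regulation moved the other way. Of 23 regulators of chromatin and of the recombining loci, with a median span of 65.9 kb, 15 rose and 2 fell (median 0.49), and without replicate 1 the calls were 8, all higher (median 0.24). With the span trend removed 9 rose and 3 fell, and when replicate 1 was also left out 5 were called, all higher. Ep300, the p300 acetyltransferase, was at 69.4 and 114 CPM without CXCL12 and 149 and 202 CPM with it. Its 4 libraries were in the same order as for Ikzf3. It rose by 0.94 ± 0.19 (adjusted p = 0.0218), or by 0.64 without replicate 1 (adjusted p = 0.0179). Arid1a, a subunit of the BAF remodelling complex, was at 264 and 313 and then 368 and 441 CPM, a rise of 0.49 ± 0.11 (adjusted p = 0.0218), and of 0.38 without replicate 1 (adjusted p = 0.0238).

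Genes of cholesterol synthesis and uptake rose in 8 cases of 21 and fell in 4 (median 0.21), and 3 rose without replicate 1, whereas in sufficient cultures 8 were called, all lower. Stard4, a carrier of cholesterol between membranes, was at 22.3 and 51.4 CPM without CXCL12 and 67.7 and 74.8 CPM with it, a rise of 0.95 ± 0.26 (adjusted p = 0.0222), and of 0.48 without replicate 1 (adjusted p = 0.0132). Replicate 1 without CXCL12 was the lowest, and the groups did not overlap. Its difference from sufficient cultures, where it fell by 1.01 ± 0.26 (adjusted p = 0.0114), was 1.96 ± 0.36 (adjusted p = 0.00258). The call of that fall was lost without any 1 of the 4 sufficient libraries (adjusted p from 0.0538 to 0.0736).

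Other lists had few calls that stood without the library apart. Glycolysis genes gave 1 higher and 2 lower of 23, and heat shock genes a single call, lower, of 14. Of 24 late B cell maturation genes 1 rose and 8 fell. In sufficient cultures 13 rose and 1 fell, where 17.3% and 13.2% of all genes did. The counts that follow are of deficient cultures. FOXO targets gave 7 and 4 of 25, chemokine receptors and adhesion genes 2 and 4 of 28, p53 targets 2 and 4 of 24, BCL2 family genes 1 and 4 of 16, and stress genes of amino acids and unfolded proteins 10 calls, all lower, of 30. Over all genes 12.8% rose and 21% fell in deficient cultures. The counts of glycolysis genes, heat shock genes, p53 targets, and chemokine receptors and adhesion genes lay below both shares. Without replicate 1 none of these lists had more than 3 genes called in either direction.

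**Figure D5:**
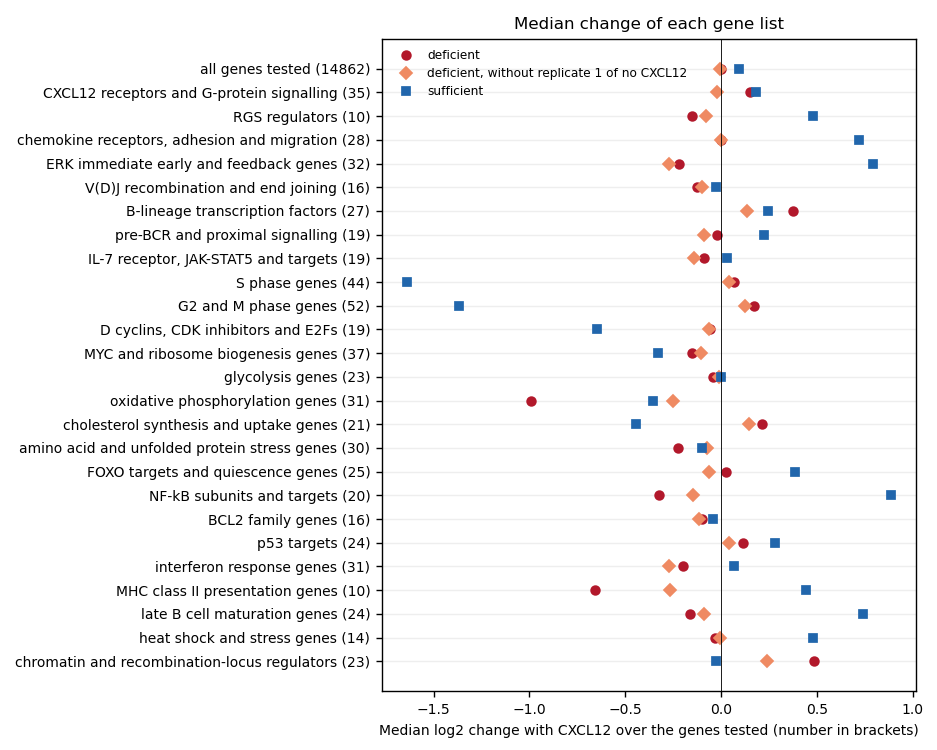
Median log2 change with CXCL12 of 25 gene lists and of all genes tested, with the number of genes in brackets. S phase and G2 and M phase lists lie near 0 in deficient cultures with or without replicate 1 and at -1.64 and -1.37 in sufficient cultures, and the oxidative phosphorylation median moves from -0.99 to -0.25 when replicate 1 is left out.

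Among genes of mean log2 CPM 3 or more, the largest called changes in deficient cultures followed the order of libraries described above. Kcna3, a potassium channel of lymphocytes, was at 0.124 and 4.41 CPM without CXCL12 and 10.0 and 15.9 CPM with it. Its value in the first library is 3 counts, and each library stood above the one before. Kcna3 rose by 2.58 ± 0.69 (adjusted p = 0.0219), or by 1.56 without that library (adjusted p = 0.0136). Cbl, a ubiquitin ligase that limits receptor signalling, was at 4.62 and 22.5 and then 46.0 and 73.8 CPM, a rise of 2.16 ± 0.48 (adjusted p = 0.0218) and of 1.42 without replicate 1 (adjusted p = 0.0179). The zinc finger genes Zbed6 and Zbtb38 rose by 2.17 ± 0.70 (adjusted p = 0.0341) and 2.17 ± 0.61 (adjusted p = 0.0235), and Gm4759 by 3.24 ± 0.58 (adjusted p = 0.0218). Without replicate 1 these 3 stood at 1.25 (adjusted p = 0.0497), 1.18 (adjusted p = 0.017) and 2.52 (adjusted p = 0.0777). Dab2 was called on 0 and 0 counts without CXCL12 and 3 and 2 with it, all at or under the floor, so no fold is given. In the sufficient libraries with their stromal markers it was at 38.9 and 41.4 and 91.7 and 87.5 CPM.

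Of the 6 genes with the greatest fitted falls, 5 were high in 1 control, and the 4 of these with a recorded span covered 859 to 3027 bases. The other was Rgs1, a regulator of G-protein signalling, with close controls. Rpl13, a ribosomal protein, was at 488 and 73.8 CPM without CXCL12 and 53.8 and 50.8 CPM with it. Atp5e, a subunit of the ATP synthase, was at 1227 and 212 and then 173 and 142 CPM. Only the first library stood apart in both. Rpl13 fell by 2.43 ± 0.58 (adjusted p = 0.0218) and Atp5e by 2.19 ± 0.53 (adjusted p = 0.0218), with -0.48 (adjusted p = 0.137) and -0.41 (adjusted p = 0.0495) without it. Scand1, Mrpl52 and 2410004N09Rik fell by 2.30 ± 0.70, 2.09 ± 0.51 and 2.09 ± 0.47 (adjusted p = 0.0283, 0.0218 and 0.0218) and stood at -1.04, -0.52 and -0.63 without that library. Rpl13 has near-identical copies in the genome, so its counts are uncertain.

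A few genes had close controls and separate treated libraries. They were chosen after their values were seen. Slc29a3, a nucleoside transporter, was at 20.1 and 20.9 CPM without CXCL12 and 29.7 and 33.0 CPM with it, a rise of 0.61 ± 0.08 (adjusted p = 0.0218) and of 0.60 without replicate 1 (adjusted p = 0.0115). Tlr6, a sensor of bacterial lipopeptides, was at 1.53 and 2.05 and then 4.25 and 4.26 CPM, a rise of 1.26 ± 0.16 (adjusted p = 0.0218). H2-T23, a nonclassical class I gene, was at 86.8 and 71.9 and then 49.5 and 51.2 CPM, a fall of 0.66 ± 0.10 (adjusted p = 0.0218). By that choice the 2 controls of these genes were nearer to each other than to either treated library, which is no further evidence. The same held for Cdk6 and Nr4a1.

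The 3 genes described next had among the largest falls with CXCL12 in sufficient cultures and were not called in deficient ones. They were picked for that fall and for a large difference, so their differences lean upward by that choice. Clgn, a chaperone of the endoplasmic reticulum, was at 144 and 159 CPM without CXCL12 and 176 and 174 CPM with it in deficient cultures. In sufficient cultures it went from 75.1 and 71.4 to 2.08 and 1.98 CPM, and it stood at 151 and 145.9 CPM with IL-7. The deficient libraries thus lay near those with IL-7. The difference was 5.37 ± 0.15 (adjusted p = 2.4e-09). Gldc, a mitochondrial glycine-cleaving enzyme, was at 435 and 727 and then 819 and 799 CPM in deficient and 135 and 133 and then 2.15 and 3.08 CPM in sufficient cultures, a difference of 6.21 ± 0.46 (adjusted p = 6.4e-06). Crhbp, which binds corticotropin-releasing hormone, was at 233 and 199 and then 192 and 177 CPM in deficient and 132 and 134 and then 2.68 and 2.31 CPM in sufficient cultures, a difference of 5.48 ± 0.41 (adjusted p = 3.8e-06).

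Of the genes with the largest rises in sufficient cultures, the 3 described next were low in deficient ones. Cd83, an activation marker of B cells, was at 1.20 and 0.922 and then 0.542 and 0.602 CPM in deficient cultures and 5.65 and 5.18 and then 27.5 and 26.9 CPM in sufficient ones. Bcl3, a nuclear partner of NF-kB, was at 4.54 and 3.53 and then 3.30 and 2.51 CPM against 8.64 and 7.30 and then 37.3 and 35.4 CPM. Fosb, an immediate early gene, was at 0.454 and 0.461 and then 0.587 and 0.401 CPM against 22.7 and 22.3 and then 172 and 173 CPM. Because these genes were picked for their change in sufficient cultures, their differences lean to the opposite side by that choice.

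Across all genes, 4543 were called in sufficient cultures (30.6%). Of these 587 were called the same way in deficient cultures, 640 the opposite way and 3316 not at all. The difference itself was called for 3750 genes (25.2%), 1800 higher (12.1%) and 1950 lower (13.1%), and for 4747 without replicate 1 of the untreated deficient pair. Over 9510 genes the correlation of the changes in the sets of cultures was 0.08, a description over genes that share libraries within each set.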

How the data were processed

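The deposited RNA-seq table gives raw counts of reads for each of 23762 gene symbols in 18 libraries of 9 groups, which the authors made from polyadenylated, stranded libraries of sorted B cells, per the labels' protocols. Per the submitters' processing notes the tools were STAR, BWA, Picard, featureCounts, bedtools and MACS2 and the build was mm9. The sources used here give no versions, annotation or strand setting, so counts of overlapping or near-identical genes are uncertain. Columns were matched to samples by name. Replicate 2 of the sufficient cultures with CXCL12 is named small pre-B in its column and pre-B in its title. Peak lists of the 8 ATAC-seq libraries were not used here.

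Counts of all 18 libraries, with 1 mean per group, were fitted in edgeR 4.0.16 (R 4.3.3) after TMM scaling. Genes passing the edgeR default expression filter (14862) entered a robust quasi-likelihood test with 9 residual degrees of freedom. The SE of a log2 change is its size over the square root of F. All groups share 1 estimate of spread, which a group with a stray library does not follow. The pool holds unlike pairs: the 2 sorted deficient libraries had Xist at 31.5 and 2078 CPM and Ddx3y at 87.9 and 0.0725 CPM. The code was tested on simulated data. Gene spans and promoter windows came from RefSeq tables of GRCm38.p6, and 92.8% of tested genes had a span. Totals of 19550744 to 28902098 counts per deficient library set the precision.

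The libraries compared, the 28 regulators and markers, and the 25 lists of biology and 12 of markers were chosen with earlier results of these data known. Named genes were those regulators, then per comparison 6 calls of greatest rise and 6 of greatest fall among genes of mean log2 CPM 3 or more, and up to 4 genes of smallest p per list described. A part of them is printed. The Igkc gene is not reported here. Alternatives were DESeq2 1.42.0, size factors by RLE, a filter at 1 CPM in 2 libraries, no filter at all, only the libraries compared, a replicate block, a test for a change of at least 2-fold and each library left out. Removal of a lowess trend on span from each library, library quality weights in limma 3.58.1, and span removal without replicate 1 were added after the data were seen. Figures were drawn with matplotlib 3.10.9.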

Additional observations from a re-analysis of the deposited data

Results flagged for a closer look

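The change with CXCL12 differed between deficient and sufficient cultures by the test of the difference itself for 3750 genes in edgeR, and for the genes listed next among those described above. Genes that fell in sufficient cultures alone, or fell there and rose in deficient ones, had log2 differences of 6.21 for Gldc, 5.48 for Crhbp, 5.37 for Clgn, 2.43 for Cish, 2.38 for Clspn, 2.13 for Cdca7 and 2.05 for Mki67. Further genes of this kind had 1.96 for Stard4, 2.01 for Cenpe, 1.95 for Cdk6, 1.94 for Atad2, 1.81 for Mcm6, 1.56 for Myc and 1.40 for Ccnd2. Gldc, Crhbp and Clgn were picked for large falls in sufficient cultures and large differences, and Cdca7 and Mcm6 for small p of the difference. For the genes so picked the test is not independent evidence. Ccnd3, called lower in both sets of cultures, had 0.93. Genes with a lower change in deficient cultures had -2.59 for Relb, -1.61 for Bcl6, -1.50 for Il2ra, -1.47 for Dusp6, -0.99 for Pax5, -0.95 for Nr4a1, -0.89 for Brwd1, -0.81 for Spib, -0.75 for Irf4, -0.57 for Rag2 and -0.45 for Irf8. Leaving out 1 library at a time ended the call for Irf8 and Pax5 among these genes. Other fits ended more: a fit to only the libraries compared ended it for Rag2, Irf4, Irf8, Pax5, Ccnd3 and Stard4, library quality weights for Rag2, Irf8, Brwd1, Bcl6, Dusp6 and Cdk6, removal of the span trend for Rag2 and Ccnd3, and no filter for Pax5. The test for a change of at least 2-fold ended it for 12: Rag2, Irf4, Irf8, Spib, Pax5, Brwd1, Bcl6, Ccnd2, Ccnd3, Dusp6, Nr4a1 and Stard4. The stromal, myeloid, T cell, plasmacytoid dendritic cell and RNA quality sums of the sufficient cultures, and the library of the deficient cultures that stood apart, are given above beside these results, and their part in the differences was not tested.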

How the results depend on the processing

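The count of 5020 deficient calls came out within 1.5 times of itself under RLE size factors, both filters, DESeq2 and the span removal, and so did the count of 3750 differences, at 3372 to 4857. Only the libraries compared gave 0 deficient calls in edgeR (261 at an unadjusted p under 0.05), 10790 sufficient ones and 1299 differences. A test for a change of at least 2-fold gave 0 (559 unadjusted), 366 and 358. Library quality weights gave 1035, 10758 and 2328, and span removal without replicate 1 of the untreated deficient pair gave 508 deficient calls. Leaving out each library gave 0 to 8602 deficient and 2257 to 2573 sufficient calls and 1990 to 8377 differences, the group of 1 being assumed to vary like the others. With the replicate number as a block the counts were 6466, 5477 and 5342. Same-numbered libraries deviated together (correlations of 0.52 in deficient and 0.40 in sufficient cultures), over 2 pairs, and the labels name no shared source. In both deficient groups replicate 2 leaned to long genes. The rank correlation with span was -0.52 for replicate 1 minus 2 without CXCL12 and 0.51 for replicate 2 minus 1 with it. The part of span in this pairing was not tested.

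Some changes turned sign. With the span trend removed the deficient change was 0.16 for Rag2, -0.21 for Foxo1, -0.070 for Brwd1, -0.16 for Il2ra, 0.23 for Myc, 0.11 for Cdkn1b, 0.036 for Cish, 0.018 for Dusp6, -0.011 for Clgn, -0.053 for Mcm6 and 0.046 for Cdca7. The sufficient change was -0.20 for Ebf1 and -0.24 for Id3, and the difference -0.0036 for Ikzf1, 0.072 for Cdkn1b and 0.0053 for Vpreb1. With replicate 1 also left out the deficient change was 0.013 for Rag2, -0.048 for Foxo1, -0.13 for Ebf1, -0.034 for Ikzf1, -0.075 for Il2ra, 0.030 for Myc, 0.062 for Cdkn1b and -0.0085 for Gldc, and the difference -0.058 for Ikzf1, -0.11 for Ikzf3, 0.015 for Cdkn1b, 0.96 for Vpreb1 and 0.047 for Id3. Over the libraries left out in turn the deficient change ranged from -0.44 to 0.22 for Bcl6, -0.018 to 0.18 for Spib, and the difference from -0.23 to 0.063 for Il7r, -0.51 to 0.49 for Rag1, -1.19 to 0.51 for Vpreb1. The sufficient calls of Rag1, Irf8, Il7r, Cdk6 and Stard4 were lost when single sufficient libraries were left out (adjusted p from 0.0526 to 0.131). The cause was not tested. With 2 libraries per group and 1 apart, the absence of a change in deficient cultures cannot be told from one too small to detect.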
